A study of Mus musculus with 15 samples.

Results

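The genes described are the plasminogen activators Plau and Plat, the activator receptor Plaur, and 5 members of the serpin family, Serpine2, Serpinb2, Serpinb5, Serpinf1 and Serpinh1, in cultured mouse mammary epithelial cells with deleted p53 and Rb and an introduced MYC. They were chosen by gene symbol, and each was to be represented by its brightest probe set among those annotated with 1 symbol only. Of these 8 genes, 7 had such a probe set, each a single one, among 19938 genes so represented, and Serpine2 was not analysed here. Each sample's RNA was read on its own Affymetrix Mouse Gene array. The 15 arrays formed 5 groups of 3: cells without p53 and Rb that also received a MYC retrovirus (p53- Rb- Myc+), cells without p53 with the MYC retrovirus (p53- Myc+), cells lacking both p53 and Rb but given no MYC (p53- Rb-), cells lacking p53 alone (p53-), and wild type cells (WT). All came from mammary glands of 8-week-old females and were cultured with EGF, insulin, cholera toxin and hydrocortisone. Deletion was by Cre recombinase from an adenovirus. The labels name no alleles, no promoter in the retrovirus and no control virus for WT cells, and do not say whether replicates are different animals or dishes. The p-values therefore speak only of the spread among these arrays, part of which may be technical.

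Plasminogen is cleaved to the broad-spectrum protease plasmin by the activators urokinase, encoded by Plau, and tissue plasminogen activator, encoded by Plat. Urokinase is concentrated at the cell surface by its receptor, encoded by Plaur, and plasminogen activation there is known to take part in matrix turnover, cell migration and the remodelling of the mammary gland after lactation. Serpins are a protein family in which many members trap a serine protease in an irreversible complex, while others have lost protease inhibition and act as tumour suppressors, secreted factors or chaperones.

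The probe set of Rb1 averaged an intensity of 18.74 in p53- Rb- Myc+, 36.43 in p53- Myc+, 57.39 in p53- Rb-, 161.5 in p53- and 92.79 in WT arrays, and that of mouse Myc averaged 96.29, 128.2, 855.7, 929.8 and 887.8 in the same groups. Mouse Myc was thus lower with the Myc+ label, and the sources used here do not say whether its probes read the transgene, so directions below rest on the labels. Rb1 was lower in the arrays labelled p53- Myc+ than in p53- arrays (-1.77 ± 0.16, adjusted p = 8.86e-09), and its mean there lay below that of the arrays labelled p53- Rb-. By the same moderated limma test Rb1 was also lower in p53- Rb- Myc+ than in p53- Rb- arrays (-1.08 ± 0.16, adjusted p = 1.5e-05). Between the groups labelled Myc+ it was lower in p53- Rb- Myc+ than in p53- Myc+ arrays (-0.57 ± 0.16, adjusted p = 0.0453). The Rb1 level thus does not settle whether Rb was intact in p53- Myc+ cells. Every comparison that uses this group, both Rb comparisons' difference included, is one of libraries as labelled. Trp53 was not analysed here. Array medians of all 35556 probe sets lay between 41.28 and 54.9, and arrays of a group correlated at r between 0.963 and 0.989 across genes. The summed intensity of 9 luminal markers was 597.4 to 680.7 in p53- Rb- Myc+ and 151.2 to 219.1 in p53- Myc+ arrays, against 13740 to 14310 in p53- Rb- arrays, 13370 to 15000 in p53- arrays and 14730 to 14900 in WT arrays. The sum of 8 basal markers was 1984 to 2242 in p53- Rb- Myc+ and 2497 to 2843 in p53- Myc+ arrays, against 9988 to 10160 in p53- Rb-, 6677 to 8356 in p53- and 9392 to 9672 in WT arrays. Of the luminal markers 5 of 9 had means below 16 in p53- Rb- Myc+ and 7 of 9 in p53- Myc+ arrays, and of the basal markers 4 of 8 and 5 of 8, Epcam, Krt5 and Trp63 among them in both groups. Others had means above 16 in both groups: Acta2 averaged 1807 in p53- Rb- Myc+ and 2321 in p53- Myc+ arrays, Egfr 172.7 and 212.4, Mylk 112.3 and 114.6, and Krt19 489.3 and 75.58. The summed intensity of 9 fibroblast markers was 3119 to 4017 in p53- Rb- Myc+, 4453 to 5222 in p53- Myc+, 5794 to 7338 in p53- Rb-, 3210 to 3461 in p53- and 3570 to 4060 in WT arrays.

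Urokinase transcript was high in the groups without the Myc+ label and low in those with it. Plau gave intensities of 263, 235.7 and 293.6 in p53- Rb- Myc+ arrays and 82, 144.6 and 96.43 in p53- Myc+ arrays. It gave 1335, 1335 and 2099 in p53- Rb- arrays, 1462, 2929 and 1402 in p53- arrays, and 1312, 1636 and 1588 in WT arrays. Every array with the Myc+ label lay below every array without it, and p53- replicate 2 stood well above the other p53- arrays. In the order of group levels, p53-, p53- Rb- and WT did not differ from their neighbours beyond the spread (adjusted p = 0.548 and 0.934). WT exceeded p53- Rb- Myc+ by 2.45 on the log2 scale (adjusted p = 2.71e-08), and p53- Rb- Myc+ exceeded p53- Myc+ (adjusted p = 0.00316). Adjusted p-values here and below are from limma's moderated test on log2(intensity + 16), 2-sided, Benjamini-Hochberg adjusted over all 19938 genes, with 0.05 as threshold, and changes are log2 fold changes ± SE with 3 arrays per group.

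Tissue plasminogen activator followed another pattern. Plat gave 225.3, 227.3 and 204.4 in p53- Rb- Myc+ arrays and 157.2, 142.6 and 169.4 in p53- Myc+ arrays. It gave 183.4, 196 and 214.3 in p53- Rb- arrays, 144.2, 122.4 and 129.2 in p53- arrays, and 82.36, 112.1 and 123 in WT arrays. Both groups labelled Rb- stood above all arrays of the groups not so labelled. No step between neighbours in its order of levels passed (adjusted p from 0.137 to 0.532), but against WT it rose in p53- Rb- Myc+ (0.96 ± 0.16, adjusted p = 3.17e-05), in p53- Myc+ (0.51 ± 0.16, adjusted p = 0.0111) and in p53- Rb- arrays (0.83 ± 0.16, adjusted p = 0.00133).

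The urokinase receptor gene resembled Plau in its levels. Plaur gave 176.8, 119.8 and 193.8 in p53- Rb- Myc+ arrays and 124.4, 106.7 and 144.8 in p53- Myc+ arrays, and these 2 groups overlapped. It gave 426.2, 470.4 and 494.8 in p53- Rb- arrays, 573.1, 680.8 and 559.7 in p53- arrays, and 583.4, 613.9 and 597.5 in WT arrays. The only step between neighbours to pass was that between p53- Rb- arrays and the lower arrays with all 3 labels (1.44 on the log2 scale, adjusted p = 5.37e-07).

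Serpinb2 encodes plasminogen activator inhibitor type 2, a mostly intracellular serpin that inhibits urokinase. It gave 284.2, 231.8 and 198.2 in p53- Rb- Myc+ arrays and 139.2, 162.6 and 126.2 in p53- Myc+ arrays. It gave 818, 1012 and 652.9 in p53- Rb- arrays, 1702, 1660 and 1821 in p53- arrays, and 852.3, 917.4 and 877 in WT arrays. The p53- arrays lay above all others, and p53- Rb- arrays spread around the WT values. Of its steps between neighbours, p53- to WT (0.96, adjusted p = 0.000353), the step down from p53- Rb- arrays to those with all 3 labels (1.72, adjusted p = 3.87e-08) and p53- Rb- Myc+ to p53- Myc+ (0.67, adjusted p = 0.0239) passed, and WT to p53- Rb- did not (0.11, adjusted p = 0.732).

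Serpinb5 encodes maspin, a serpin without known protease inhibition that was described as a tumour suppressor of mammary epithelium. Its intensities were 8.298, 5.441 and 4.405 in p53- Rb- Myc+ arrays and 2.402, 3.935 and 2.173 in p53- Myc+ arrays. They were 420.1, 506.4 and 412 in p53- Rb- arrays, 541.5, 531.3 and 549.8 in p53- arrays, and 547.6, 499.4 and 495.9 in WT arrays. The transcript was near the bottom of the scale in all 6 arrays labelled Myc+, below the constant of 16, and the groups without that label did not differ from their neighbours (adjusted p = 0.75 and 0.407). Since whole cultures were measured, fewer epithelial cells and less RNA per cell cannot be told apart.

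Serpinf1 encodes pigment epithelium-derived factor, a secreted serpin known to inhibit angiogenesis and not proteases. It gave 1497, 1596 and 1652 in p53- Rb- Myc+ arrays and 1946, 1826 and 2186 in p53- Myc+ arrays. It gave 1288, 1243 and 1612 in p53- Rb- arrays, 689.7, 651.1 and 687.9 in p53- arrays, and 721.8, 633.9 and 732.7 in WT arrays. The 3 groups with a second change beyond p53 lay above both p53- and WT arrays without overlap. Only the step from p53- Rb- to WT passed among its neighbours (0.97, adjusted p = 0.000196).

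Serpinh1 encodes HSP47, a chaperone of the endoplasmic reticulum that binds procollagen and has no protease target. It gave 932, 998 and 925.9 in p53- Rb- Myc+ arrays and 861.2, 1131 and 959.6 in p53- Myc+ arrays. It gave 919.6, 865.8 and 1143 in p53- Rb- arrays, 527.4, 648.4 and 448 in p53- arrays, and 678.9, 712.1 and 799.4 in WT arrays. The p53- arrays were the lowest of all 5 groups and overlapped none of them, and no step between neighbours passed (adjusted p from 0.0592 to 0.964).

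**Figure D1:**
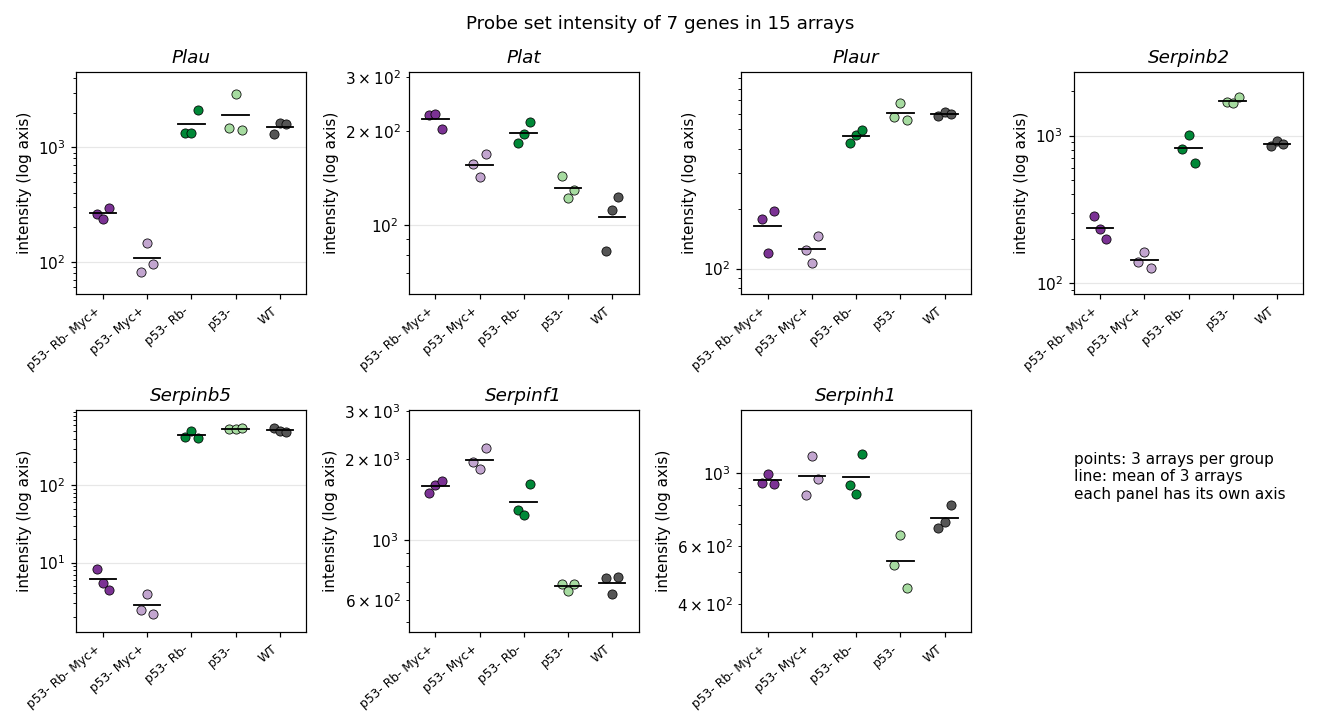
Intensity of each gene's probe set (log axis, linear values as deposited) in the 15 arrays, with 3 points per group and a line at their mean. Plau, Plaur, Serpinb2 and Serpinb5 were lower in all 6 arrays labelled Myc+ (Serpinb5 between 2.173 and 8.298) than in the other 9, and each panel has its own axis.

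The p53- label was examined in p53- against WT arrays, with no control virus named for the WT cells. Serpinb2 rose 1.94-fold (0.96 ± 0.17, adjusted p = 0.000353), and it was the only member to pass, 1 of 7, where 29% of all genes passed. The arrays of both groups did not overlap for 2 of 7 members, Serpinb2 and Serpinh1, against 40.3% of all genes. Serpinh1 changed by -0.43 ± 0.17 with all p53- arrays below all WT arrays, and did not pass (adjusted p = 0.0592, from 0.0165 to 0.272 over 24 alternatives, of which 6 passed). The intervals of the other members were -0.24 to 0.78 for Plau, -0.04 to 0.62 for Plat, -0.35 to 0.37 for Plaur, -0.24 to 0.38 for Serpinb5 and -0.36 to 0.28 for Serpinf1 (95%, log2). Of 27 measured partners of the plasminogen system, 4 rose and 3 fell, among them Hgf, the gene of the growth factor that urokinase can activate in its precursor form (0.78 ± 0.17), Pdgfd, whose product urokinase can activate (0.94 ± 0.20), the serpin gene Serpini1 (0.99 ± 0.21), and Prss8, the gene of a membrane-anchored protease (-0.87 ± 0.20). The split among partners was 3 rising and 6 falling after each array was centred on its median. Of 7 macrophage and leukocyte markers 4 fell, Lyz2 (-3.17) and Cd14 (-2.21) the most, and 1 rose, Ptprc (0.69). Their summed intensity was 504.7 to 618.9 in p53- arrays, against 1948 to 2336 in WT arrays, and their part in the changes of this comparison was not tested.

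The Rb- label was examined in p53- Rb- against p53- arrays. Serpinf1 rose 2.01-fold (1.00 ± 0.15, adjusted p = 9.48e-05), Serpinh1 rose 1.79-fold (0.84 ± 0.17, adjusted p = 0.00136) and Plat rose 1.45-fold (0.53 ± 0.16, adjusted p = 0.0217). Serpinb2 fell 2.1-fold (-1.07 ± 0.17, adjusted p = 0.000184), and its change in p53- Rb- against WT arrays was -0.11 (interval -0.47 to 0.25). In all, 4 of 7 members passed, where 19.8% of all genes did. The arrays of both groups did not overlap for 6 of 7 members, against 40% of all genes. Plaur (-0.37 ± 0.17, adjusted p = 0.139) and Serpinb5 (-0.27 ± 0.15, adjusted p = 0.201) had all p53- Rb- arrays below all p53- arrays and did not pass, and Plau changed by -0.23 ± 0.25. The call of Plat ended without p53- replicate 2 (adjusted p = 0.0502), p53- replicate 3 (0.0771) or p53- Rb- replicate 3 (0.0924), and its adjusted p ranged from 0.00399 over 24 alternatives. The p53- arrays are shared with the comparison against WT, so values of Serpinb2 and Serpinh1 in those arrays enter both.

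Genes that modify and cross-link procollagen, the protein that HSP47 binds, included many that rose, as Serpinh1 did, in p53- Rb- against p53- arrays. Of 30 measured genes of procollagen processing, 19 rose and 2 fell in p53- Rb- against p53- arrays, with a median of 0.89, against -0.08 over all genes, of which 19.8% passed. In p53- Rb- Myc+ against p53- Rb- arrays 6 rose and 14 fell (median -0.48, against 0.12 over all genes, of which 36.3% passed) with Serpinh1 at -0.03. In p53- Myc+ against p53- arrays 12 rose and 3 fell (median 0.21, against -0.09, with 33.3% passing) with Serpinh1 at 0.85. In p53- against WT arrays 5 rose and 8 fell (median -0.18, against 0.12, with 29% passing) with Serpinh1 at -0.43. In p53- Rb- against p53- arrays Loxl3, a collagen cross-linking oxidase gene, rose by 1.91 ± 0.17, Plod1, a lysyl hydroxylase gene, by 1.58 ± 0.19, and Pcolce, which encodes an enhancer of procollagen cleavage, by 1.56 ± 0.19. Among plasminogen partners, 4 of 27 rose and 2 fell, close to the 19.8% of all genes that passed. The 4 that rose were the endocytic receptor genes Lrp1 (0.93 ± 0.17), which clears activator and inhibitor complexes, Mrc2 (1.55 ± 0.19), whose product associates with the urokinase receptor, and Vldlr (0.71 ± 0.18), and Lrpap1, the gene of a chaperone of this receptor family (0.91 ± 0.15). Hgf was lower, with a mean of 26.09 ± 2.52 in p53- Rb- and 49.62 ± 3.32 in p53- arrays (SD, n = 3). The summed level of the 9 fibroblast markers was higher in p53- Rb- (5794 to 7338) than in p53- arrays (3210 to 3461), and its part in these changes was not tested.

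The Myc+ label was examined first as p53- Myc+ against p53- arrays. The urokinase gene, its receptor and its inhibitor fell together: Plau 15.2-fold (-3.92 ± 0.25, adjusted p = 1.17e-11), Plaur 4.4-fold (-2.14 ± 0.17, adjusted p = 9.47e-10) and Serpinb2 11-fold (-3.46 ± 0.17, adjusted p = 2.43e-13). Serpinb5 fell by 4.89 ± 0.15 on the log2 scale (adjusted p = 4.33e-17), a size that depends on the constant added, at -7.17 with 1 and -3.18 with 64. Serpinf1 rose 2.89-fold (1.53 ± 0.15, adjusted p = 3.12e-08) and Serpinh1 1.8-fold (0.85 ± 0.17, adjusted p = 0.000363). Plat changed by 0.22 ± 0.16 with an interval of -0.11 to 0.55 and did not pass (adjusted p = 0.323). Thus 6 of 7 members passed, where 33.3% of all genes did, and the same 6 had arrays without overlap, against 42.6% of all genes.

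Cells with all 3 labels were also set against p53- Rb- cells, which asks the same of the Myc+ label among arrays labelled Rb-. Plau fell 5.62-fold (-2.49 ± 0.25, adjusted p = 2.55e-08), Plaur 2.71-fold (-1.44 ± 0.17, adjusted p = 5.37e-07) and Serpinb2 3.3-fold (-1.72 ± 0.17, adjusted p = 3.87e-08). Serpinb5 fell by 4.39 ± 0.15 (adjusted p = 3.75e-16), at -6.02 with 1 added and -2.86 with 64 added. These 4 of 7 passed, where 36.3% of all genes did, and the same 4 had arrays without overlap, against 51.2% of all genes. Serpinf1 (0.20, interval -0.12 to 0.52), Serpinh1 (-0.03, -0.38 to 0.33) and Plat (0.14, -0.19 to 0.47) did not pass.

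Several genes of surface proteases and their inhibitors linked to urokinase fell with the Myc+ label. Of 27 plasminogen partners, 11 fell and 3 rose in p53- Myc+ against p53- arrays (median -0.31, against -0.09 over all genes, of which 33.3% passed), and 10 fell and 3 rose in p53- Rb- Myc+ against p53- Rb- arrays (median -0.27, against 0.12, with 36.3% of all genes passing). St14, the gene of matriptase, which can activate the urokinase precursor, averaged 6.336 ± 5.72 (SD, n = 3) in p53- Rb- Myc+ and 2.105 ± 3.3 in p53- Myc+ arrays, against 817.4 ± 91.8 in p53- Rb- and 693.2 ± 62.8 in p53- arrays. Its inhibitor gene Spint2 averaged 7.073 ± 2.76 in p53- Rb- Myc+ and 3.771 ± 1.49 in p53- Myc+ arrays, against 1195 ± 34.6 in p53- Rb- and 1053 ± 32.8 in p53- arrays, and Spint1 and Prss8 fell with them. Anxa2 and S100a10, whose products form a plasminogen-binding complex on the cell surface, fell by 1.03 ± 0.15 and 1.42 ± 0.26 on the log2 scale in p53- Myc+ against p53- arrays. Lrp1 (1.24 ± 0.17), Mrc2 (1.38 ± 0.19) and Hgf (0.67 ± 0.17) rose in that comparison. In p53- Rb- Myc+ against p53- Rb- arrays Hgf rose too (0.65 ± 0.17), while Lrp1 (-0.27 ± 0.17) and Mrc2 (-0.31 ± 0.19) did not pass. All 9 luminal markers fell in both comparisons, while 6 of 8 basal markers fell and 1, Acta2 (0.57, adjusted p = 0.0182), rose in p53- Myc+ against p53- arrays, and 7 of 8 fell in p53- Rb- Myc+ against p53- Rb- arrays. Of 9 fibroblast markers 5 rose and 2 fell in p53- Myc+ against p53- arrays, the falling ones being Thy1 (-3.86) and Lum (-1.94). In p53- Rb- Myc+ against p53- Rb- arrays 1 of the 9 rose and 7 fell. Of 7 macrophage and leukocyte markers 4 fell in the first comparison and 3 in the second, and 0 rose in either. The part of all these markers in the changes above was not tested. Plg, the gene of plasminogen itself, had a mean between 14.34 and 24.05 in every group.

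**Figure D2:**
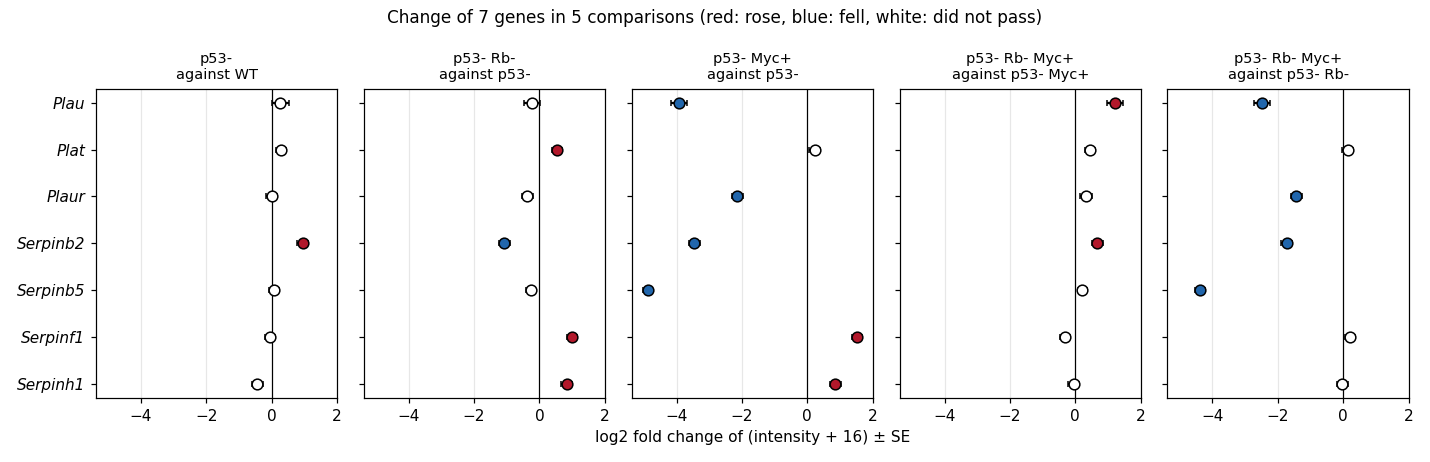
Log2 fold change of (intensity + 16) ± SE of the 7 genes in 5 comparisons, 3 arrays per group, coloured red where a gene rose, blue where it fell and white where it did not pass. The Myc+ comparisons hold the falls of Plau, Plaur, Serpinb2 and Serpinb5 (-4.89 to -1.44). Serpinf1 and Serpinh1 rose in p53- Myc+ against p53- (1.53 and 0.85) and in p53- Rb- against p53- (1.00 and 0.84), and in the second of these Plat rose and Serpinb2 fell.

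With the Myc+ label present, p53- Rb- Myc+ cells were compared with p53- Myc+ cells. Plau rose 2.31-fold (1.21 ± 0.25, adjusted p = 0.00316) and Serpinb2 rose 1.59-fold (0.67 ± 0.17, adjusted p = 0.0239), so that the urokinase gene and the gene of its inhibitor moved up together, both without overlap of the arrays. These 2 of 7 passed, where 4.69% of all genes did, and 5 of 7 members had arrays without overlap, against 20.5% of all genes. The call of Serpinb2 ended with only the compared groups in the fit (adjusted p = 0.0606) and without p53- Myc+ replicate 1 (0.0731) or 3 (0.0988) or p53- Rb- Myc+ replicate 1 (0.157) or 2 (0.0734), and its adjusted p ranged from 0.00245 over 24 alternatives. Plat changed by 0.45 ± 0.16 (adjusted p = 0.132), Plaur by 0.33 ± 0.17 (adjusted p = 0.398), Serpinf1 by -0.32 ± 0.15 (adjusted p = 0.324) and Serpinh1 by -0.04 ± 0.17 (adjusted p = 0.952). Serpinb5, below 16 in every array, changed by 0.22 ± 0.15 and did not pass (adjusted p = 0.535, from 0.0329 to 0.813 over 24 alternatives). Of procollagen processing genes, 5 of 30 fell and 1 rose (median -0.05, against 0.05 over all genes). Hgf fell by 0.66 ± 0.17, the only plasminogen partner of 27 to pass. Of 9 luminal markers 2 rose, Krt19 (2.47 ± 0.15) and Krt18 (0.97 ± 0.17), and 0 fell. Of 9 fibroblast markers 3 fell, Pdgfra (-1.40), Dcn (-0.69) and Col1a2 (-0.66), and 0 rose. Of 8 basal markers 0 passed, and of 7 macrophage and leukocyte markers 1 rose, Cd14 (0.97). The part of these markers in the changes of this comparison was not tested.

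The change with the Rb- label differed between cells with and without the Myc+ label for 4 of 7 members, where 13.6% of all genes passed this test of the difference. Serpinb2 was higher with the Rb- label in Myc+ cells and lower with it in cells without Myc+, a difference of 1.74 ± 0.25 (adjusted p = 5.13e-05). Plau differed in the same direction by 1.43 ± 0.35 (adjusted p = 0.00767). Serpinf1 (-1.33 ± 0.22, adjusted p = 0.000255) and Serpinh1 (-0.88 ± 0.24, adjusted p = 0.0175) differed the other way, with rises passing only in arrays without Myc+. The call of Serpinh1 was lost on leaving out replicate 3 of p53- (adjusted p = 0.0659) or replicate 3 of p53- Rb- (0.0566), in a range from 0.00281 over 24 alternatives. For Plat the difference was -0.08 with an interval of -0.55 to 0.38, and it did not pass for Plaur (0.70 ± 0.24, adjusted p = 0.0613, from 0.0134 to 0.297) or Serpinb5 (0.50 ± 0.21, adjusted p = 0.12). Of 30 procollagen processing genes, 17 differed in the direction of Serpinh1 and 1 in the other (median -0.84, against 0.13 over all genes), including Loxl3 (-2.93 ± 0.25) and the prolyl hydroxylase gene P3h3 (-2.23 ± 0.26). Lrp1 (-1.51 ± 0.24), Mrc2 (-1.69 ± 0.27) and Lrpap1 (-1.25 ± 0.21) were the plasminogen partners that passed, also downward. Of 9 fibroblast markers, 6 passed downward and 1 upward, and their part in these differences was not tested.

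**Figure D3:**
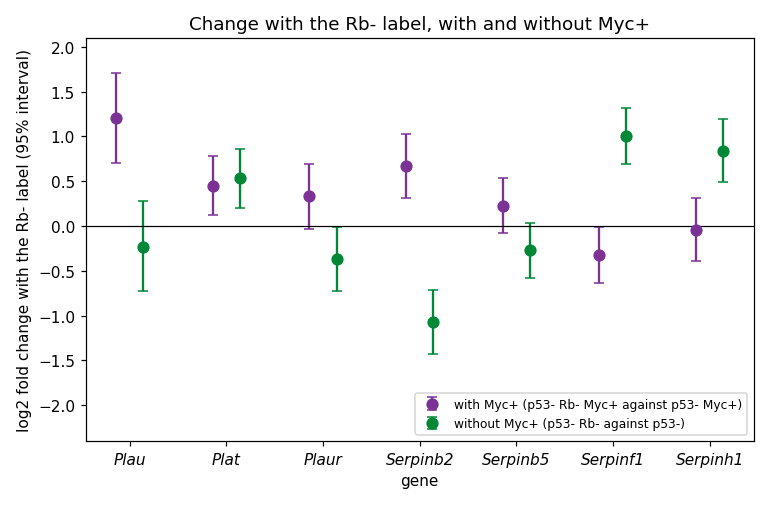
Log2 fold change with the Rb- label for each gene, in cells with Myc+ (p53- Rb- Myc+ against p53- Myc+) and without (p53- Rb- against p53-), with 95% intervals. For Serpinb2 the interval lies above 0 with Myc+ (0.31 to 1.03) and below 0 without (-1.43 to -0.71), while those of Plat overlap widely.

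**Figure D4:**
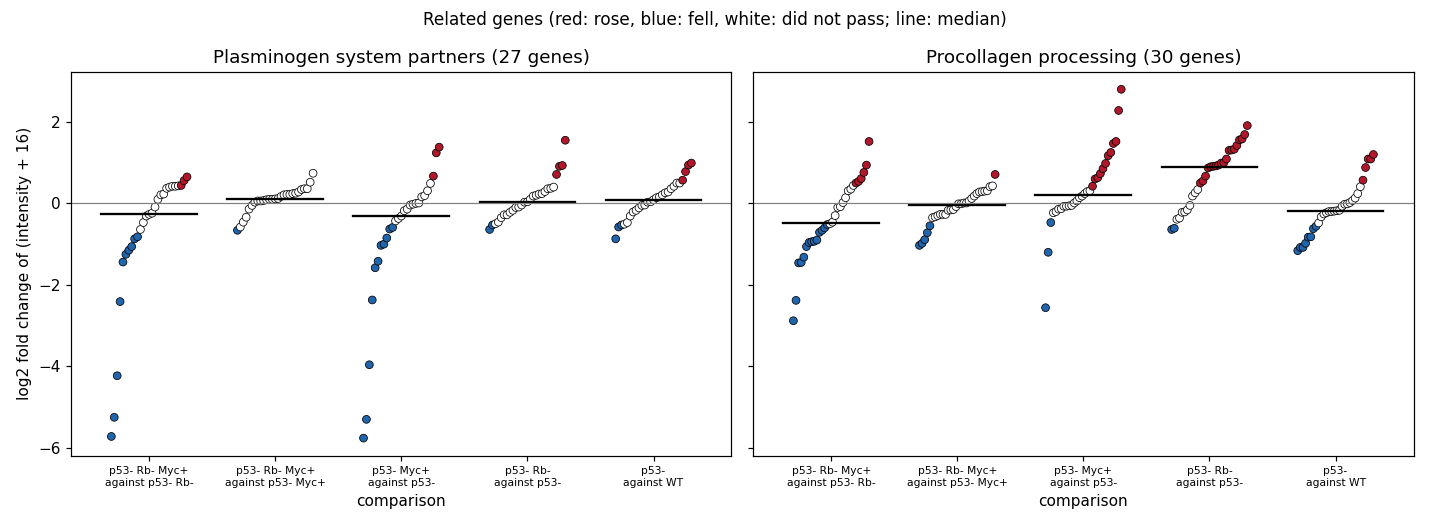
Log2 fold change of each measured plasminogen partner (27 genes) and procollagen processing gene (30 genes) in the 5 comparisons, sorted within each, with a line at the median. The procollagen genes stand highest in p53- Rb- against p53- arrays (median 0.89), and the lowest partners in the Myc+ comparisons are Spint2 and St14.

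Against WT, 6 of 7 members passed in p53- Rb- Myc+ arrays, where 45.4% of all genes did, and 6 of 7 in p53- Myc+ arrays, where 44.2% did, in both cases all but Serpinh1. In p53- Rb- against WT arrays 2 of 7 passed, Plat and Serpinf1, where 14.6% of all genes did. Serpinf1 stood 2.25-fold above WT in p53- Rb- Myc+, 2.81-fold in p53- Myc+ and 1.95-fold in p53- Rb- arrays. Serpinh1 was at 0.38 (adjusted p = 0.0744), 0.42 (adjusted p = 0.0507) and 0.40 (adjusted p = 0.117) in the same groups. These comparisons share the WT arrays.

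The rest of the serpin family was set beside the members. Of 44 measured genes, 4 rose and 0 fell in p53- Rb- Myc+ against p53- Myc+ arrays, where 4.69% of all genes passed. In p53- Myc+ against p53- arrays 2 rose and 10 fell, where 33.3% passed. This split depended on the scaling, with 5 rising and 6 falling after centring, and 5 and 7 with quantile normalization. With p53- against WT 6 rose and 3 fell, where 29% of all genes passed, a split that turned to 4 and 7 after centring. Serping1, the gene of the complement C1 inhibitor, averaged 666.4 ± 17.6 in p53- Rb- Myc+ against 16.48 ± 1.97 in p53- Myc+ arrays, and 1171 ± 351 in p53- Rb- against 145.9 ± 18.9 in p53- arrays (SD, n = 3). It thus rose with the Rb- label in both settings (4.39 ± 0.18 and 2.84 ± 0.18), unlike Serpinb2, which fell in cells without Myc+. In WT arrays Serping1 averaged 669.4 ± 80.5, and it fell in p53- against WT arrays (-2.08 ± 0.18). Serpina3n also rose with the Rb- label in both settings (1.37 ± 0.23 and 2.67 ± 0.23) and fell in p53- against WT arrays (-2.28 ± 0.23). Serpina3n and Serpinb3a belong to groups of similar mouse paralogs, so their probe sets may share signal with relatives.

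Serpinb5 and Serpinb2 lie in a cluster of 12 serpin genes of clade B on mouse chromosome 1, with Serpinb5 at its edge and 8 genes between them. Beside them 9 genes of the cluster were measured. In p53- Myc+ against p53- arrays 3 of these 9 fell, Serpinb8 (-0.86), Serpinb10 (-0.81) and Serpinb11 (-0.68), and 2 rose, Serpinb3a (0.62) and Serpinb13 (0.57), against -4.89 for Serpinb5 and -3.46 for Serpinb2. Of all genes 33.3% passed in that comparison. In p53- Rb- Myc+ against p53- Rb- arrays 0 of the 9 fell while Serpinb3a (1.96) and Serpinb11 (0.67) rose, where 36.3% of all genes passed. In p53- against WT arrays, where Serpinb2 rose, 3 of the 9 rose, Serpinb8, Serpinb11 and Serpinb12. That is near the share of all genes that passed there (29%). In p53- Rb- against p53- arrays, where Serpinb2 fell, 1 of the 9 fell, Serpinb11 (-1.08 ± 0.24), and 0 rose, where 19.8% of all genes passed. Most of these genes were dim, with group means from 4.249 to 76.35 for the 9, so the constant of 16 shrinks their changes.

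The genes most like each member in their values over the 15 arrays were found by Pearson's r of the log2 values. For Serpinb5 these were the desmosome gene Dsp (r = 0.999), Perp, a p53 target of epithelial junctions (0.998), and Epcam (0.998). For Plaur they were Ptpre (0.991), Dock8 (0.99) and Tns4 (0.988), for Plau Shroom2 (0.988), Rbm47 (0.988) and Pxdc1 (0.984), and for Serpinb2 Mindy3 (0.986), Ptpn13 (0.986) and Heca (0.984). Serpinf1 was most like Fbln1 (0.983), the gene of the matrix protein fibulin-1, Bri3bp (0.978) and Mxra7 (0.975), Serpinh1 like Slc29a1 (0.97), Snai1 (0.953) and Mrc2 (0.953), and Plat like Usp21 (0.937), Septin6 (0.905) and Gprc5b (0.904). Within the 9 arrays without the Myc+ label, r of Serpinb5 was 0.19 with Epcam and 0.88 with Dsp, and within the 6 with it 0.51 and 0.71. For Serpinf1 and Fbln1 it was 0.99 within the 9 arrays and 0.76 within the 6 with the label. Plau had r of 0.54 with Shroom2, 0.62 with Rbm47 and 0.64 with Pxdc1 within the 9 arrays. Within the 6 its r with these genes was 0.99, 0.97 and 0.95. Between members, r of Plau with Plaur was 0.51 within the 9 and 0.55 within the 6 arrays, and r of Serpinb2 with Serpinh1 was -0.88 and 0.02. Arrays of a group share their treatment and are no independent points for these r.

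Promoter sequences are shown for Serpinb5, Serpinb2 and Plaur, which fell with the Myc+ label. Those of Serpinf1 and Serpinh1, which rose in p53- Rb- and in p53- Myc+ against p53- arrays, are shown too. The RefSeq table of GRCm38.p6 held promoters for 6 of 8 members. It held none for Plau, which also fell with the Myc+ label, so the windows do not cover all falling members. Each window covers 250 bases before and 50 from the start site, 5′ to 3′ on the gene's strand. They are at chr1:106860925-106861224 (plus strand), chr1:107511173-107511472 (plus), chr7:24462233-24462532 (plus), chr11:75422574-75422873 (minus) and chr7:99353190-99353489 (minus), and Serpinb2 has a second, overlapping window that is not shown. Capitals mark matches, on either strand, to the AP-1 motif TGANTCA, the E-box CACGTG of MYC and MAX, the E2-boxes CACCTG or CAGGTG, and the heat shock elements GAANNTTC or TTCNNGAA.
Serpinb5: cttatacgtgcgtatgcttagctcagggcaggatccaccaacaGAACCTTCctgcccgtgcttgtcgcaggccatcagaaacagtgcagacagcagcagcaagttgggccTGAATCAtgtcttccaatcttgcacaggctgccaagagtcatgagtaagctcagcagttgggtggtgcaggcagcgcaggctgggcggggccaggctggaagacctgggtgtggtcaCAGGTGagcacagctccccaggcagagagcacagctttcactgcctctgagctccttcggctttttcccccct
Serpinb2: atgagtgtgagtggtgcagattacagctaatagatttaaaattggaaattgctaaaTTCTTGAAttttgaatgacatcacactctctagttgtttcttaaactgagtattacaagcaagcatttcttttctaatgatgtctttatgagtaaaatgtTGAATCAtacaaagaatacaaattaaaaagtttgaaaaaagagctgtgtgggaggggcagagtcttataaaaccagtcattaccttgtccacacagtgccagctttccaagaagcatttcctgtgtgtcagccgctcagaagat
Plaur: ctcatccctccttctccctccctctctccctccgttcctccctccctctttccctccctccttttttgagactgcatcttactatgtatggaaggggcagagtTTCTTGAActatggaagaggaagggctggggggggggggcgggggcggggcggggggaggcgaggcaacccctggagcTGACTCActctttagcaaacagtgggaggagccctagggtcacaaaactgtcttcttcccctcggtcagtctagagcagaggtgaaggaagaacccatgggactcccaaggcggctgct
Serpinf1: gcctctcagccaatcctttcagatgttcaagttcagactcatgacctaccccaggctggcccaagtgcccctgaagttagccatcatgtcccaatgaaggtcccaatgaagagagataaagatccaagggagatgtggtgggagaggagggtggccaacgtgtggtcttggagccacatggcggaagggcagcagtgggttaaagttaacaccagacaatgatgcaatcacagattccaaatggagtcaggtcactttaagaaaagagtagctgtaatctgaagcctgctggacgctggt
Serpinh1: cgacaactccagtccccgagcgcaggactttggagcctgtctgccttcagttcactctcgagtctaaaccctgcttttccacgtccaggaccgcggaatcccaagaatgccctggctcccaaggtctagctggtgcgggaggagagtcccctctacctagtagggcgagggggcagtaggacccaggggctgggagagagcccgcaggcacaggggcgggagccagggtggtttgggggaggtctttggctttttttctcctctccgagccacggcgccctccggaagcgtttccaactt
The AP-1 pattern TGANTCA allows any base at N. It was matched in Serpinb5 (TGAATCA, from base -140), Serpinb2 (TGAATCA, -94) and Plaur (TGACTCA, -69), counted from the start site. Only the middle base thus differs between these matches. Of all 32851 promoters of this length, 7.81% hold a match to this pattern. No match was found in these windows of Serpinf1 and Serpinh1. The E-box CACGTG, in 7.15% of promoters, was in none of the 5 windows. An E2-box, in 20.2% of promoters, was in Serpinb5 at -23. A heat shock element, in 15.1% of promoters, was in Serpinb5 (-207), Serpinb2 (-194) and Plaur (-147). These matches describe letters in the windows, and binding was not measured.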

How the data were processed

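Transcript levels of 15 samples were measured on 1-colour Affymetrix Mouse Gene arrays after WT-Ovation Pico amplification, per the labels' protocols. The deposited values are linear probe set intensities exported by the authors, whose software was Affymetrix Expression Console 1.1 according to the submitters' processing notes. How probes were summarised, scaled or centred is unstated there. Values ran from 4.11e-05 to 8348, and the number of arrays limits the precision.

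Of 35556 probe sets, 21789 had 1 gene symbol in the platform annotation, 1621 had several and the others were not listed; 0 of 19856 symbols changed through Entrez numbers (GRCm38.p6). Per gene the brightest probe set, by mean over all arrays, was kept. Group means of log2(intensity + 16) were fitted over all 15 arrays with limma 3.58.1 in R 4.3.3, after a check on simulated data, and a contrast in that fit tested whether the Rb change depended on Myc+. The groups' samples come from their titles.

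The members and lists were chosen with earlier results of these data known. Named were all members, up to 4 passing genes of smallest p per list and comparison, and the 3 genes most like each member; further partners and clade B neighbours were named after their values were seen. Replicate numbers deviated together between p53- Rb- Myc+ and p53- Myc+ arrays (r = 0.102, 0.192 and 0.379), a pairing taken from the values and not the labels, and in no other comparison did every pair exceed 0.1. Alternatives were other constants, scalings, filters, probe set rules, weights, samples in the fit, a replicate block and leaving out each array.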

Additional observations from a re-analysis of the deposited data

Results flagged for a closer look

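The change with the Rb- label differed between cells with and without the Myc+ label for 4 genes, by limma's test of the difference itself in the fit over 15 arrays. The difference, with Myc+ minus without, was 1.74 on the log2 scale for Serpinb2 (adjusted p = 5.13e-05) and 1.43 for Plau (adjusted p = 0.00767). It was -1.33 for Serpinf1 (adjusted p = 0.000255) and -0.88 for Serpinh1 (adjusted p = 0.0175). Serpinb2 was higher in all 3 p53- Rb- Myc+ arrays than in all p53- Myc+ arrays, and lower in all 3 p53- Rb- arrays than in all p53- arrays. Rb1 averaged 36.43 in arrays labelled p53- Myc+, against 161.5 in p53- and 18.74 in p53- Rb- Myc+ arrays. Its level thus does not settle whether Rb was intact in the p53- Myc+ group, which enters these differences. Groups of 3 arrays were not searched for single outlying values.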

How the results depend on the processing

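Each of 42 changes (7 genes in 6 comparisons) was recomputed under 24 alternatives, and 967 of 1008 values kept their direction and their side of the threshold. In p53- against WT, where 1 member passed, 2 passed with 64 added, with centred arrays, with quantile normalization and among genes at or above the median level, 3 with array weights, and 1 to 2 with a replicate left out. In p53- Rb- Myc+ against p53- Myc+, where 2 passed, 1 passed with only the groups compared in the fit, and 1 to 2 with a replicate left out. Elsewhere the count stayed within 1.5 times of the one reported, at 3 to 4 in p53- Rb- against p53-, 6 in p53- Myc+ against p53-, 4 in p53- Rb- Myc+ against p53- Rb- and 3 to 5 in the difference with a replicate left out. With the replicate block the counts were 1, 4, 6, 2, 4 and 4, and it changed no member's call. Changes that reversed did not pass in either setting, and their cause was not tested. In p53- against WT these were Plau without p53- replicate 2 (-0.07, in a range of -0.07 to 0.46 with a replicate left out), Serpinb5 with centred arrays (-0.10), and Plaur with centred arrays (-0.16), quantile normalization (-0.01), array weights (-0.04), without WT replicate 1 (-0.01) and without p53- replicate 2 (-0.08, range -0.08 to 0.06). Plau without p53- replicate 2 was at 0.12 in p53- Rb- against p53- (range -0.44 to 0.12). Serpinh1 was at 0.02 with array weights and 0.06 without p53- Myc+ replicate 2 (range -0.13 to 0.06) in p53- Rb- Myc+ against p53- Myc+, and at 0.03 with array weights and 0.09 without p53- Rb- replicate 3 (range -0.11 to 0.09) against p53- Rb-. Plat was at 0.01 with array weights in the difference. Centring moved the median change of all genes to -0.05 with the p53- label and to 0.10 with the Rb- label without Myc+, against 0.12 and -0.08 with values as deposited. Levels below 16, as of Serpinb5 with Myc+, limit the size of its changes.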
